A study of Mus musculus with 6 samples.

Results

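The genes described here encode the contractile machinery, the calcium store, the energy supply and the natriuretic peptides of heart muscle cells. They are a listed set of 33 mouse genes, taken by symbol from 55487 gene identifiers. All 33 were found, and all 33 were among the 15707 genes that passed the filter on low counts. The RNA came from a preparation meant to hold no heart muscle cells: hearts of C57BL/6 mice were digested, and the non-myocyte cells were enriched with magnetic beads against Cd11b, a surface integrin of myeloid cells. Reads in these genes therefore describe the cardiomyocyte RNA carried over into each preparation, together with what other cells make of the same genes. Control pools (WT) were Egfr f/f, with floxed alleles of the epidermal growth factor receptor gene, and the other pools (KO), named Egfr mKO, had the genotype EGFR -/- (myeloid-specific). The sources used here give neither the Cre driver nor the animals' age or sex. Each genotype had 3 pools, with 5 hearts listed per pool and 6 for KO replicate 3, so single animals are not resolved.

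Heart muscle contracts when myosin heads of the thick filament pull on the actin of the thin filament. Calcium switches this on: it leaves the sarcoplasmic reticulum through the ryanodine receptor Ryr2, binds troponin C (Tnnc1), and is pumped back by the calcium ATPase Atp2a2, which phospholamban (Pln) restrains. Atrial muscle uses the myosin light chains Myl4 and Myl7, ventricular muscle uses Myl2 and Myl3, and in the adult heart the peptide hormone gene Nppa is most active in the atria. Many of these genes are largely confined to striated muscle. Tpm1, Des and Atp2a2 are clear exceptions, since tropomyosin 1 is also made by smooth muscle and fibroblasts, desmin by smooth muscle and pericytes, and Atp2a2 by most cell types. Other genes of the set need not be confined to striated muscle either, and what other cells add to their reads was not tested.

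Libraries held 17780707 to 27485129 reads in genes. Egfr, the targeted gene, was lower in all 3 KO pools (15.9 to 18.5 CPM, reads scaled to library size by the TMM method) than in any WT pool (43.01 to 54.7 CPM), with a log2 fold change of -1.46 (adjusted p = 0.0449 by edgeR). Itgam, which encodes Cd11b, was present in every pool, at 84.4 to 141 CPM in WT and 120.0 to 176 CPM in KO.

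Promoter sequences are shown for Actc1, Myl3, Myl7 and Nppa, chosen as examples of a cardiac actin, a ventricular light chain and atrial genes. Each is the 250 bases before the gene's start in RefSeq (GRCm38.p6), written 5' to 3' on the gene's own strand. The windows are chr2:114052876-114053125 (minus strand) for Actc1, chr9:110763428-110763677 (plus strand) for Myl3, chr11:5898783-5899032 (minus strand) for Myl7 and chr4:148000472-148000721 (plus strand) for Nppa.
Actc1: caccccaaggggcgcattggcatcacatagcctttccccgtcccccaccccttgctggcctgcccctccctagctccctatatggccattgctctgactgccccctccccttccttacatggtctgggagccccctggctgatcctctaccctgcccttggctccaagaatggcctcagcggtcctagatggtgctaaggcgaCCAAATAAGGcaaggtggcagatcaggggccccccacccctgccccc
Myl3: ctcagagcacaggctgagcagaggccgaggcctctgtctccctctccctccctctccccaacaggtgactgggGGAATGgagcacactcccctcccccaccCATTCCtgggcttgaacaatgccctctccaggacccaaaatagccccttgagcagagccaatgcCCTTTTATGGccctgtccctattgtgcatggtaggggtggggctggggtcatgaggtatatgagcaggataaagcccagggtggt
Myl7: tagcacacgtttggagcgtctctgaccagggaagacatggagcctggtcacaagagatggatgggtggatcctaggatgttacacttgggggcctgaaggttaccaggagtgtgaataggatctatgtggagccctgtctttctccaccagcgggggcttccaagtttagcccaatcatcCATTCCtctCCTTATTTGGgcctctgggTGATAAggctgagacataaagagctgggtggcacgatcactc
Nppa: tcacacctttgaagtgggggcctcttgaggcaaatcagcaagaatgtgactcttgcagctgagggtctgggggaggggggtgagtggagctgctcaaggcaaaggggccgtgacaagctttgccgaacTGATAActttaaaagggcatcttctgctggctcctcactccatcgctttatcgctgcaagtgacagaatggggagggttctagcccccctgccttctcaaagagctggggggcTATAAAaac
Capitals mark matches to 4 motifs, searched on both strands: the CArG box, bound by serum response factor, the MCAT motif (CATTCC), bound by TEAD factors, the TATA box (TATAAA), and the GATA motif with A or T before it and A or G after it. A CArG box begins 47 bases before the start of Actc1, 85 before that of Myl3 and 61 before that of Myl7, and being a palindrome it matches on both strands. In the Nppa window the CArG box was not matched, a GATA motif begins 122 bases and a TATA box 9 bases before the start. In the windows of the light chains Myl2 and Myl4, not shown, the CArG box, MCAT and GATA motifs were not matched. The Myl2 window ends at base 122093188 of chromosome 5, apart from the gene start at 122100951 given below. RefSeq starts can differ from the GENCODE gene positions used elsewhere here. The Actc1 window lies inside the gene span given below, and the Myl3 window inside that of Myl3 (110741861 to 110769798). Windows of some genes not shown differ in this way too. RefSeq windows were at hand for 30 of the 33 genes, all but Atp2a2, Tcap and Myom2. Among these 30, a CArG box was found in 5 (16.7%: Actc1, Ldb3, Myl3, Myl7 and Myom1), against 1.47% of all 32851 promoters in the table. The MEF2 site, searched as well, was found in 4 (13.3%, against 2.92% of all promoters), MCAT in 8 (26.7% against 12.6%), GATA in 12 (40% against 26.5%) and the TATA box in 4 (13.3% against 12.4%). These are matches of letters in 1 window per gene and say nothing of binding.

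Together the 33 genes took 0.111% to 0.206% of the gene reads of a pool. WT replicates 1 to 3 held 0.130%, 0.187% and 0.206%, and KO replicates 1 to 3 held 0.112%, 0.111% and 0.159%. KO replicate 3 lay above WT replicate 1, so the groups overlapped. Means were 0.174% ± 0.0395 (SD, n = 3) for WT and 0.127% ± 0.0275 for KO. Counting error was small beside that spread, with an exact (Clopper-Pearson) 95% interval of 0.204% to 0.208% for WT replicate 3 and 0.109% to 0.112% for KO replicate 2. Such intervals cover counting error only. As a share of gene reads, the KO mean was 65.9% of the WT mean for the thick filament genes, 67.4% for the thin filament, 66.1% for titin, the Z-disc and the M-band, 67.9% for energy and oxygen and 68.8% for the natriuretic peptides. For the calcium genes of the reticulum, which include Atp2a2, it was 84.2%.

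**Figure D1:**
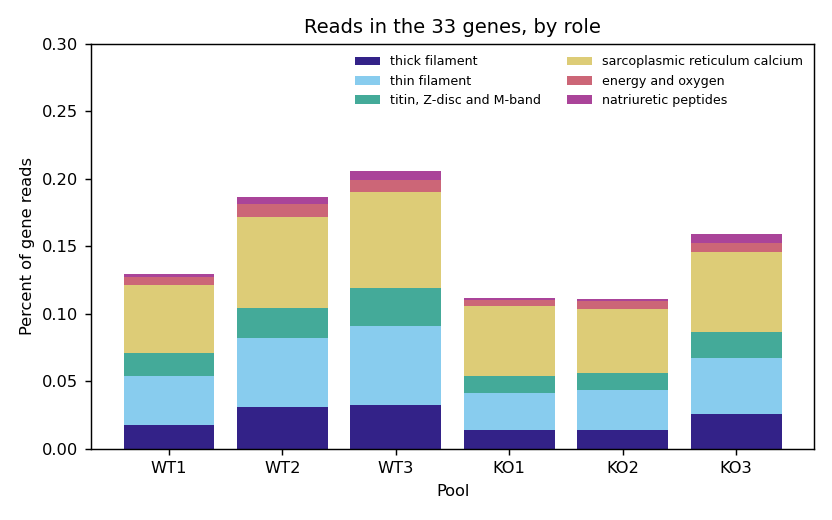
Percent of gene reads (y axis) in the 33 genes for each of the 6 pools (x axis), by the role of the genes. The total is highest in WT3 at 0.206% and lowest in KO2 at 0.111%, and KO3 stands above WT1.

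Atp2a2 and Tpm1 made up much of that sum. Of the reads in the 33 genes, Atp2a2 held 29.9% ± 2.54 in WT and 36.6% ± 4.97 in KO (SD, n = 3), and Tpm1 held 16.9% ± 0.915 and 15.5% ± 0.628. With Tpm1, Des and Atp2a2 left out, the other 30 genes held 0.0585%, 0.0955% and 0.102% of gene reads in the WT pools and 0.0446%, 0.0470% and 0.0792% in the KO pools. WT replicate 3 was again highest, KO replicates 1 and 2 lowest, and KO replicate 3 lay between WT replicates 1 and 2. In bulk RNA, fewer carried-over cells and less RNA per cell cannot be told apart.

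This order of the pools recurred gene by gene. WT replicate 3 had the highest level of the 6 pools for 24 of the 33 genes (25.9% of all genes tested). KO replicate 1 had the lowest for 14 and KO replicate 2 for 17 (13.3% and 17.6% of all genes tested). Among the KO pools, replicate 3 was highest for 31 genes, all but Myh7 and Myl2, and lowest for 0, whereas over all genes tested it was highest for 34.4% and lowest for 33.7%. Among the WT pools, replicate 1 was lowest for 29 genes (36.5% of all genes tested), all but Myh7, Myom1, Des and Nppb. The median gene of the 33 was 0.68 higher on the log2 scale in KO replicate 3 than in the mean of KO replicates 1 and 2, where the median over all genes tested was -0.01. For WT replicate 1 against the mean of WT replicates 2 and 3, these medians were -0.57 and -0.03. Between its highest and lowest pool the median gene of the 33 spanned 2.28-fold, and the median of all genes tested 1.65-fold.

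**Figure D2:**
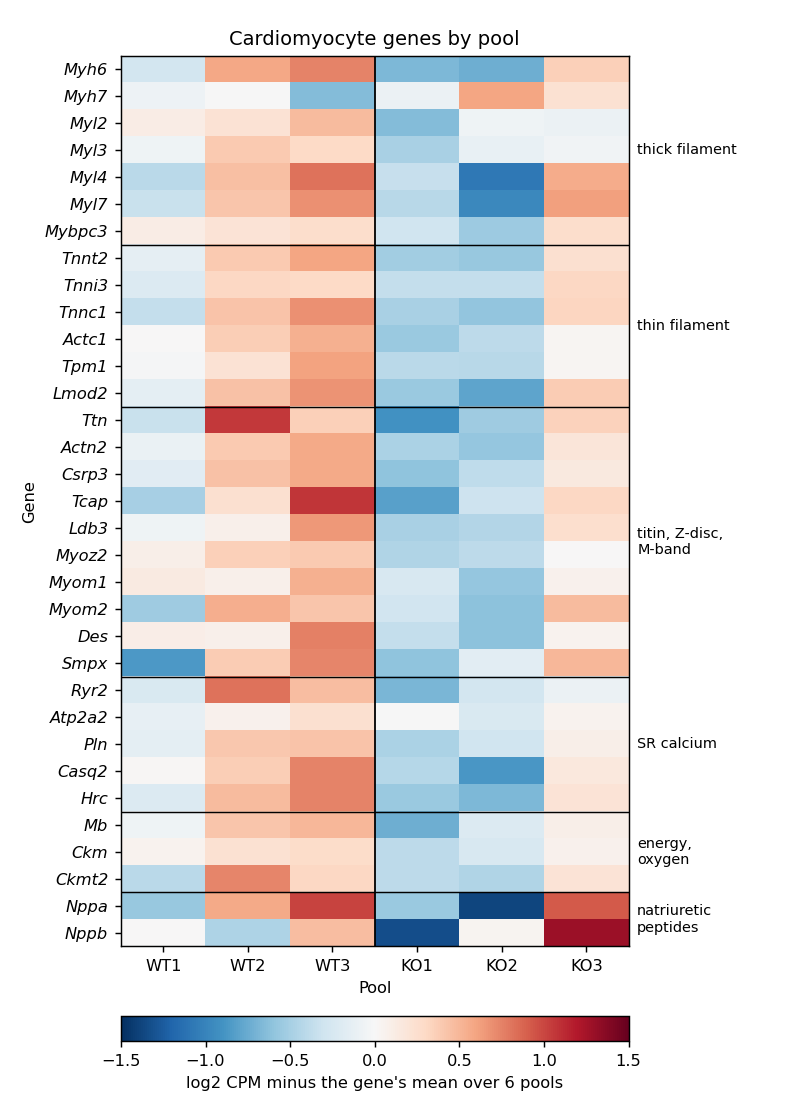
Level of each of the 33 genes (rows, by role) in each pool (columns), on a log2 CPM scale relative to the gene's mean over the 6 pools. For most genes KO1 and KO2 are low and WT2 and WT3 high, and KO3 is the highest KO pool for 31 of 33.

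Levels per kilobase of exon (RPKM, mean of the 6 pools) spanned more than 3 orders of magnitude. With all annotated exons of a gene merged, Atp2a2 led at 79.8 RPKM, followed by Nppa at 44.9, Tpm1 at 37.6, the oxygen-binding protein myoglobin (Mb) at 35.7, the atrial light chain Myl7 at 35.3 and Actc1 at 28.99. Ryr2 at 0.273 RPKM, titin (Ttn) at 0.0818 and Myh7 at 0.0438 were lowest. Ttn and Ryr2 also have the longest merged exons, 116825 and 28790 bases. The order depended on the length used. By the principal transcript, a choice made after seeing the data, Tpm1 came first at 129 RPKM and Atp2a2 second at 108, and cardiac troponin T (Tnnt2) moved from place 16 (8.53 RPKM) to place 3 (55.1 RPKM). The ventricular light chain Myl2 moved from 15.7 to 34.4 RPKM, beside Myl7, whose 35.3 RPKM was the same by both lengths.

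**Figure D3:**
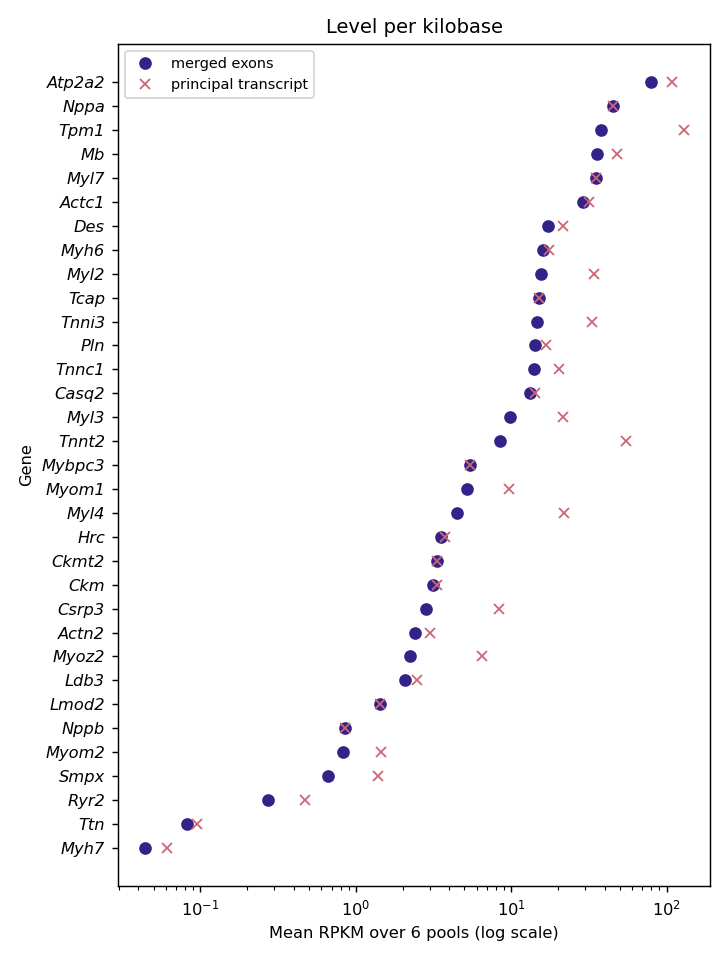
Mean level per kilobase over the 6 pools (x axis, RPKM, log scale) for each gene (y axis), by merged exons or by the principal transcript. Atp2a2, Nppa, Tpm1, Mb and Myl7 lie at the top by merged exons, and Myh7, Ttn and Ryr2 at the bottom by both lengths.

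In the comparison of KO with WT, 0 of the 33 genes passed the threshold in edgeR (adjusted p from 0.232 to 0.861), where 0.0127% of all genes tested passed, 0 of them higher in KO. Fold changes were below 0 for 31 of the 33, all but Myh7 and Nppb, against 49.2% of all genes tested. The median log2 fold change of the 33 was -0.51, and that of all genes tested 0.01. At an unadjusted p under 0.05 there were 10, all lower in KO (10.6% of all genes tested were lower and 4.77% higher at that level): Myl2, Myl3, Actc1, Tpm1, Myoz2, Myom1, Des, Ryr2, Casq2 and Mb. By DESeq2 0 of the 33 passed after adjustment, where 5% of all genes tested passed, and 12 were lower at an unadjusted p under 0.05 (11.8% of all genes tested). DESeq2 gave no adjusted p for Myh7 and Nppb, which are counted as not passing. By limma-voom 0 passed, where 1 of all genes tested did, and 9 were lower at an unadjusted p under 0.05 (8.93% of all genes tested). For 4 genes (Myl2, Myoz2, Myom1 and Des) the highest KO pool was below the lowest WT pool, a pattern held by 10.1% of all genes tested. The opposite pattern was held by 0 of the 33 and by 9.59% of all genes tested.

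Single libraries moved these counts. With WT replicate 1 left out, 21 of the 33 had no overlap and lower KO levels (21.3% of all genes tested), 20 were lower at an unadjusted p under 0.05 (14.4% of all genes tested), and the median was -0.69. Of the 33 only Ryr2 then passed the threshold (log2 fold change -0.97, adjusted p = 0.0481 by edgeR), while 1338 genes, or 8.3% of all genes tested, passed in that fit. Over the settings tried the adjusted p of Ryr2 ranged up to 0.619. With KO replicate 3 left out, 26 of the 33 had no overlap and lower KO levels (16.2% of all genes tested), 26 were lower at an unadjusted p under 0.05 (8.76% of all genes tested), and the median was -0.77, while 0 passed. Without WT replicate 2, 5 of the 33 were lower at an unadjusted p under 0.05 (median -0.49, 8.53% of all genes tested at that level), and without WT replicate 3 there was 1 (median -0.36, 5.65%). Without KO replicate 1 there were 0 (median -0.37, 7.37% of all genes tested), and without KO replicate 2 there was 1 (median -0.40, 6.25%).

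**Figure D4:**
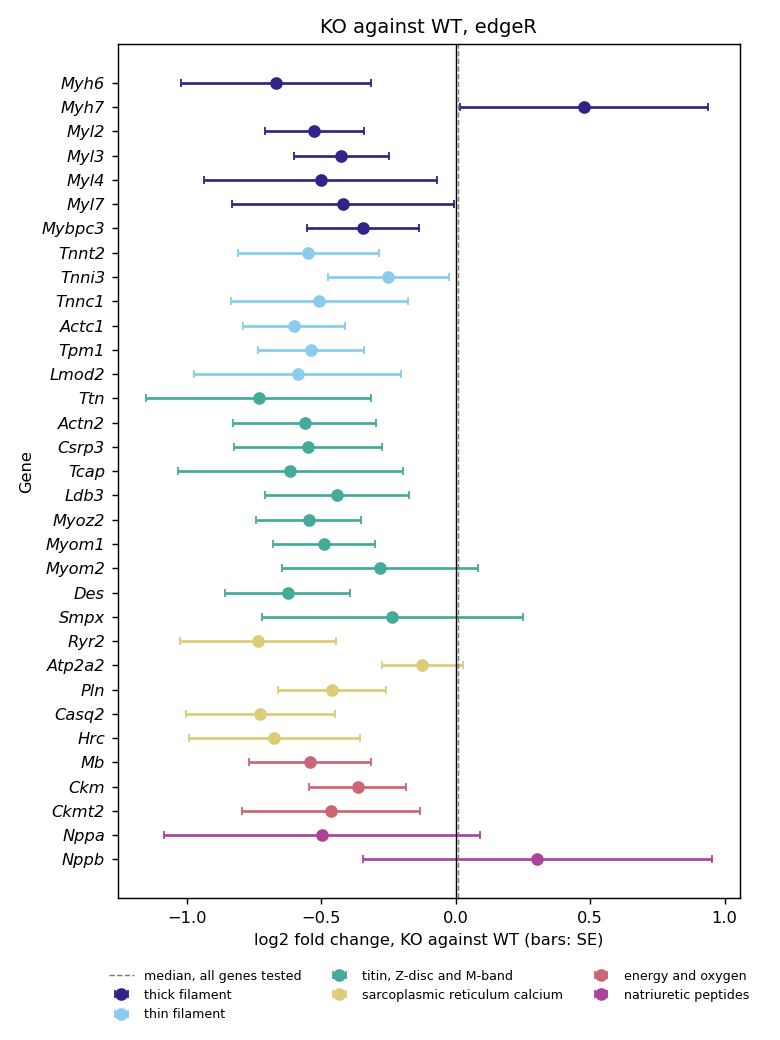
Log2 fold change of KO against WT (x axis, SE as bars) for each of the 33 genes (y axis), by role. All but Myh7 and Nppb lie below 0, and 0 of 33 passed the threshold after adjustment.

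The thick filament is built of myosin heavy and light chains. Myh6 (ENSMUSG00000040752, chromosome 14, 54941921 to 54966927, minus strand; gene positions are on GRCm38), the main heavy chain of the adult mouse heart, read 81.8, 148 and 165 CPM in the WT pools and 61.7, 59.5 and 127 CPM in the KO pools. KO replicates 1 and 2 lay below every WT pool, and KO replicate 3 above WT replicate 1. Its log2 fold change of -0.67 had an SE of 0.35 (adjusted p = 0.415 by edgeR). Myh7, the slow heavy chain that dominates in the fetal ventricle, was counted only 5 to 14 times per library. It made up 0.422%, 0.246% and 0.141% of the reads of both heavy chain genes in the WT pools and 0.554%, 0.916% and 0.335% in the KO pools. The exact 95% intervals were wide, such as 0.193% to 0.799% for WT replicate 1 and 0.501% to 1.53% for KO replicate 2, which overlap. Those of WT replicate 3 (0.0457% to 0.328%) and KO replicate 2, the lowest WT and the highest KO share, do not. They rest on 5 and 14 Myh7 reads. The intervals of KO replicate 1 (0.254% to 1.05%) and KO replicate 3 (0.167% to 0.598%) overlap those of all 3 WT pools. For Myh7 the log2 fold change was 0.48 with an SE of 0.46 (adjusted p = 0.670 by edgeR). Its antisense neighbour Mhrt, at 0.417 CPM against 0.377 for Myh7, overlaps 484 of its exon bases. The antisense genes Gm31251 (0.324 CPM) and Gm29015 (0.0143 CPM) overlap 523 and 142 exon bases of Myh7. Reads aligned to several places were not assigned to genes, so related heavy chains can be undercounted. Mybpc3, cardiac myosin-binding protein C, had a mean of 25.3 ± 1.36 CPM over the WT pools and 19.9 ± 5.98 CPM over the KO pools (SD, n = 3), and KO replicate 3, at 26.6 CPM, was its highest pool.

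All 6 thin filament genes had fold changes below 0. Actc1 (ENSMUSG00000068614, chromosome 2, 114047282 to 114053548, minus strand), the cardiac alpha-actin, read 45.6, 58.6 and 65.3 CPM in the WT pools and 30.9, 34.6 and 46.3 CPM in the KO pools. The groups met only where KO replicate 3 lay just above WT replicate 1. Its adjusted p of 0.232 by edgeR was the smallest of the 33 (log2 fold change -0.60, SE 0.19). Tnnt2, which ties the troponin complex to tropomyosin, read 57.4, 82.996 and 95.1 CPM in the WT pools and 43.96, 42.5 and 74.6 CPM in the KO pools, again with KO replicate 3 inside the WT range. Tnni3, the inhibitory subunit, had the fold change nearest to 0 in this group (-0.25, SE 0.23), and the calcium-binding subunit Tnnc1 had -0.51 (SE 0.33). Tpm1, the tropomyosin shared with other cells, had 289 ± 63.9 CPM in WT and 199 ± 36.1 CPM in KO, a log2 fold change of -0.54 (SE 0.20). Lmod2, which lengthens thin filaments, had the lowest level per length of the group at 1.43 RPKM by merged exons, and a log2 fold change of -0.59 (SE 0.38).

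All 10 genes of titin, the Z-disc, the M-band and the desmin scaffold had fold changes below 0, from -0.73 to -0.24. Ttn, the molecular spring of the sarcomere, read 6.85, 17.9 and 11.03 CPM in the WT pools and 4.58, 5.97 and 10.9 CPM in the KO pools, with WT replicate 2 highest. Des, the intermediate filament around the Z-discs, read 66.5, 65.5 and 105 CPM in the WT pools and 48.4, 40.7 and 64.3 CPM in the KO pools, so its groups did not overlap. The 13 markers of smooth muscle and pericytes, cells that also make Des and Tpm1, summed to 2776, 3412 and 4556 CPM in the WT pools and 2028, 1745 and 2572 CPM in the KO pools, and their part in the Des and Tpm1 values was not tested. Myoz2, a calcineurin-binding Z-disc protein, had 9.13 ± 1.01 CPM in WT and 6.24 ± 1.12 CPM in KO without overlap (log2 fold change -0.55, SE 0.20). Myom1, which cross-links myosin at the M-band, had 55.9 to 76.96 CPM in WT against 35.7 to 55.7 CPM in KO. It shares 207 exon bases with Myl12a on the opposite strand, and Myl12a was at 100.1 CPM. Without a stated strand setting, reads of the pair cannot be told apart in those bases. For its relative Myom2 the ranges overlapped, 4.81 to 10.2 CPM in WT and 4.56 to 9.67 CPM in KO. Tcap, which caps titin at the Z-disc, read 9.16, 15.3 and 27.3 CPM in the WT pools and 7.33, 10.4 and 15.99 CPM in the KO pools. The spread of Tcap within WT was wide, and its log2 fold change of -0.61 had an SE of 0.42. The Z-disc proteins Actn2, Csrp3 and Ldb3 had -0.56, -0.55 and -0.44 (SE 0.27 each), and Smpx, a small muscle protein counted 20 to 51 times per library, had -0.24 (SE 0.49).

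Among the calcium genes, the release channel and the storage proteins had fold changes further from 0 than the pump. Ryr2 (ENSMUSG00000021313, chromosome 13, 11553102 to 12106945, minus strand) read 6.35, 12.98 and 10.2 CPM in the WT pools and 4.62, 6.13 and 6.95 CPM in the KO pools. KO replicate 3 lay above WT replicate 1, and the log2 fold change of -0.74 (SE 0.29, adjusted p = 0.290 by edgeR) was the most negative of the 33. Casq2, the calsequestrin that binds calcium in the reticulum, read 34.5, 43.7 and 57.1 CPM in the WT pools and 25.3, 18.6 and 37.8 CPM in the KO pools. Here too only KO replicate 3 reached into the WT range, and the log2 fold change was -0.73 with an SE of 0.28. Hrc, another calcium-binding protein of the reticulum, had -0.68 (SE 0.32), and the pump inhibitor Pln had -0.46 (SE 0.20). Of the 2759 exon bases of Pln, 141 are shared with Cep85l (35.6 CPM) and 1644 with Gm47644 (0.431 CPM), both on the opposite strand. What these overlaps take from the Pln counts was not tested. Atp2a2 read 444, 505 and 570.0 CPM in the WT pools and 482, 412 and 499 CPM in the KO pools, with a fold change of -0.12 on the log2 scale (SE 0.15).

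Each of the 3 genes of energy supply and oxygen storage was lowest in replicate 1 among the WT pools and highest in replicate 3 among the KO pools. Mb read 48.9, 68.1 and 72.3 CPM in the WT pools and 30.9, 44.3 and 54.7 CPM in the KO pools (log2 fold change -0.54, SE 0.23). The antisense gene Gm49540, at 0.0434 CPM, overlaps 412 of the 1492 exon bases of Mb. The muscle creatine kinase Ckm had a mean of 10.2 ± 0.851 CPM over the WT pools and 7.95 ± 1.31 CPM over the KO pools (SD, n = 3), and the mitochondrial form Ckmt2 had 5.77 ± 2.15 and 4.17 ± 1.13 CPM. The groups overlapped for all 3.

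The natriuretic peptides varied most between pools. Nppa (ENSMUSG00000041616, chromosome 4, 148000722 to 148002079, plus strand) read 22.05, 48.5 and 65.97 CPM in the WT pools and 22.3, 12.6 and 61.8 CPM in the KO pools. KO replicate 3 was close to the highest WT pool and KO replicate 2 was lowest, a 5.25-fold span. The log2 fold change of -0.50 had an SE of 0.59 (adjusted p = 0.738 by edgeR). The antisense gene Gm13054, at 0.572 CPM, overlaps 532 of the 865 exon bases of Nppa. The strand setting is not given, and what this overlap takes from the Nppa counts, levels and ratios was not tested. Nppb, the peptide gene induced in strained ventricles, was counted 6 to 36 times per library and read 0.577, 0.417 and 0.792 CPM in the WT pools and 0.229, 0.589 and 1.40 CPM in the KO pools. Its log2 fold change of 0.30 (SE 0.65) rested on KO replicate 3: without that pool it was -0.55 (SE 0.64).

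Atrial and ventricular genes did not keep a constant ratio between pools. The atrial light chain Myl7 (ENSMUSG00000020469, chromosome 11, 5896637 to 5898782, minus strand) read 15.1, 25.6 and 30.8 CPM in the WT pools and 14.3, 9.78 and 29.3 CPM in the KO pools. Myl4, the other atrial light chain, read 14.2, 25.6 and 33.01 CPM in the WT pools and 14.8, 8.96 and 27.6 CPM in the KO pools. For both, as for Nppa, KO replicate 2 was the lowest pool and KO replicate 3 lay within the WT range. The ventricular chain Myl2 (ENSMUSG00000013936, chromosome 5, 122100951 to 122113472, plus strand) read 32.1, 34.7 and 41.3 CPM in the WT pools and 18.9, 28.3 and 27.9 CPM in the KO pools. For Myl2 KO replicate 1 was lowest, and the groups did not overlap. Myl3, its ventricular partner, read 19.01, 26.1 and 24.4 CPM in the WT pools and 14.2, 18.4 and 19.1 CPM in the KO pools. The atrial genes spanned more from highest to lowest pool, 5.25-fold for Nppa, 3.69-fold for Myl4 and 3.15-fold for Myl7, against 2.18-fold for Myl2 and 1.84-fold for Myl3. Log2 fold changes were -0.42 (SE 0.41) for Myl7, -0.50 (SE 0.43) for Myl4, -0.53 (SE 0.18) for Myl2 and -0.43 (SE 0.18) for Myl3.

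Of the reads of Myl2 and Myl7 together, Myl7 held 32.0%, 42.5% and 42.7% in the WT pools and 43.1%, 25.7% and 51.3% in the KO pools. The exact 95% intervals of KO replicate 2 (22.9% to 28.5%) and KO replicate 3 (48.7% to 53.9%) lay on either side of those of all 3 WT pools. Myl4 held 42.7%, 49.5% and 57.5% of the reads of Myl3 and Myl4 in the WT pools and 51.0%, 32.7% and 59.1% in the KO pools. In the pair of Nppa and Myl2, Nppa held 40.7%, 58.3% and 61.5% of reads in the WT pools and 54.1%, 30.7% and 68.9% in the KO pools. All 3 pairs had KO replicate 2 lowest, WT replicate 1 next and KO replicate 3 highest. These are shares of reads, not of molecules, since the genes differ in length. The log2 ratio of Myl4, Myl7 and Nppa summed to Myl2 and Myl3 summed was 0.57 ± 0.50 in WT and 0.46 ± 0.97 in KO (SD, n = 3), a difference of -0.10 that was smaller than the SD of either group. Its sign depended on the genes and on single pools: for Myl7 to Myl2 alone it was 0.03, and for the summed genes it was -0.54 without KO replicate 3 and 0.42 without KO replicate 2.

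**Figure D5:**
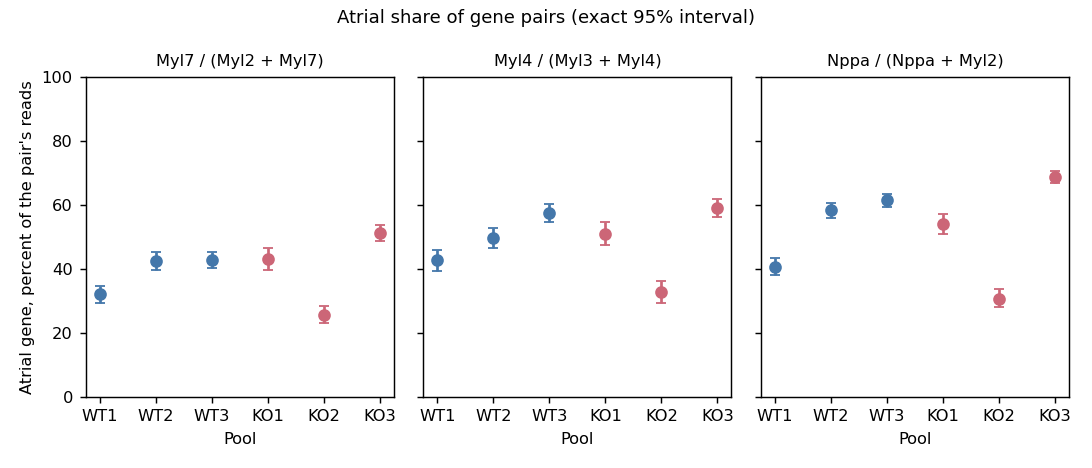
Reads of an atrial gene as a percent of the reads of an atrial and a ventricular gene (y axis) in each pool (x axis), with exact 95% intervals as bars. KO2 is lowest and KO3 highest in all 3 pairs, at 25.7% and 51.3% for Myl7 of Myl2 and Myl7.

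Of 6 further atrial genes, all 6 had fold changes below 0 (median -0.82). In edgeR 0 of them passed and 2 were lower at an unadjusted p under 0.05 (10.6% of all genes tested). DESeq2 called 1 lower (3.97% of all genes tested) and limma-voom 0. Sln, the atrial inhibitor of the calcium pump, read 2.62, 5.995 and 6.52 CPM in the WT pools and 2.25, 1.45 and 6.87 CPM in the KO pools, with KO replicate 2 lowest and KO replicate 3 highest, as for Nppa among the KO pools. Dkk3 and Kcna5, the most abundant of the 6, had log2 fold changes of -1.06 (SE 0.43) and -1.06 (SE 0.18). Neither shared that order: the KO pools read 28.2, 31.1 and 34.3 CPM for Dkk3 and 17.5, 23.1 and 22.05 CPM for Kcna5, with replicate 1 lowest. In the WT pools Dkk3 read 24.3, 71.8 and 99.5 CPM, above Myl4 and Myl7 in each. The genes of this list need not be confined to atrial muscle, and what other cells add to their reads was not tested. Among the KO pools, replicate 2 was lowest for 3 of the 6 and replicate 1 for the other 3, and replicate 3 was highest for 5. Of 4 further ventricular genes only 2 were abundant enough to test, and 0 passed in edgeR, DESeq2 or limma-voom. In edgeR 1 was lower at an unadjusted p under 0.05 (10.6% of all genes tested). The 2 tested were the transcription factor Hey2, at 5.12 to 8.71 CPM in WT and 2.99 to 5.82 CPM in KO, and the potassium channel subunit Kcnip2, at 1.62 to 1.82 CPM in WT and 0.535 to 1.09 CPM in KO.

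Other heart muscle genes mostly had fold changes below 0 as well, in 20 of 23 further sarcomere and Z-disc genes (median -0.60), 18 of 19 of excitation and calcium handling (median -0.50), 12 of 14 of energy metabolism (median -0.38), 10 of 10 of the intercalated disc (median -0.64) and 8 of 10 cardiac transcription factors (median -0.71). In edgeR 0 passed in any of these lists, with 5, 4, 2, 4 and 3 lower and 0 higher at an unadjusted p under 0.05. Of all genes tested, 10.6% were lower and 4.77% higher at that level. DESeq2 called 4, 2, 1, 3 and 1 lower (3.97% of all genes tested), and limma-voom 0. The lists share a few genes with each other and with the chamber lists. Their genes need not be confined to heart muscle cells. In WT, Mef2a averaged 251 CPM and Mef2c 159 CPM, above Myh6 at 132 CPM. What other cells add to the reads of these lists was not tested. Among the most abundant genes of each list, the Z-disc adaptor Pdlim5 (0.08), the kinase Camk2d (-0.07), the acyl-CoA dehydrogenase Acadm (0.03), the enolase Eno3 (-0.04) and the factors Mef2a (0.08), Mef2c (0.06) and Srf (-0.09) had fold changes within 0.1 of 0 on the log2 scale. Asph, a reticulum protein, had -0.16, the sodium-calcium exchanger Slc8a1 -0.24, plakoglobin (Jup) -0.32 and the glucose transporter Slc2a4 -0.58. The myosin chaperone Unc45b (-0.999, SE 0.25), filamin C (Flnc, -1.08, SE 0.27), connexin 43 (Gja1, -1.01, SE 0.24) and the junction protein Tjp1 (-1.11, SE 0.20) had values further from 0. These 4 and Slc8a1 and Jup were lower in every KO pool than in any WT pool, as were 10.1% of all genes tested.

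Markers of other cells differed between pools too. Fold changes were below 0 for all 12 endothelial (median -1.08), all 12 fibroblast (median -1.12) and all 13 smooth muscle and pericyte markers (median -0.90). In edgeR 0 of these passed, with 12, 12 and 12 lower at an unadjusted p under 0.05 (10.6% of all genes tested). DESeq2 called 12, 6 and 10 lower (3.97% of all genes tested) and limma-voom 0. Fibroblast markers summed to 2200, 4495 and 6929 CPM in the WT pools and 2447, 2115 and 1681 CPM in the KO pools. KO replicate 3, the highest KO pool for 31 cardiomyocyte genes, was thus the lowest of the 6 for fibroblast markers. Endothelial markers summed to 2207, 2548 and 3693 CPM in the WT pools and 1204, 1238 and 1577 CPM in the KO pools, with no overlap. Erythroid markers summed to 1890 CPM in WT replicate 1, the WT pool with the lowest cardiomyocyte share, and to 76.5 and 143 CPM in WT replicates 2 and 3, against 36.4 to 84.9 CPM in KO. Mesothelial markers summed to 30.5 to 50.4 CPM in WT and 14.97 to 31.2 CPM in KO, and Schwann cell markers to 10.1 to 20.998 CPM in WT and 6.83 to 11.7 CPM in KO. All 12 macrophage markers had fold changes above 0 (median 0.53), with 0 passing in edgeR, DESeq2 or limma-voom. At an unadjusted p under 0.05 in edgeR, 4 were higher and 0 lower (4.77% of all genes tested were higher and 10.6% lower). The 12 markers summed to 11631, 6181 and 7866 CPM in the WT pools, so WT replicate 1 lay near the KO pools, which summed to 11939, 11810 and 12663 CPM. The part of these cells in the cardiomyocyte values was not tested. Skeletal muscle genes, 14 in all with 7 tested, summed to 18.3 to 26.0 CPM per pool, and Myh4, a fast skeletal heavy chain, was at 0 in every pool.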

How the data were processed

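RNA was measured in 6 libraries, 3 WT and 3 KO pools. The authors deposited raw read counts for each Ensembl gene. The submitters' processing notes name STAR, HTSeq, DESeq2 and GRCm38. Tool versions, annotation release and strand setting: not given in the sources used here. The library kit marks strand, per the labels' protocols. The 5 counters that name no gene were left out. Of gene reads and counters together, reads outside genes made up 5.90% to 8.62%, reads in several genes 1.49% to 1.72% and reads with several alignments 7.58% to 8.67%.

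Of 55487 identifiers 55141 had a symbol. Positions and merged exon lengths are from GENCODE M21 (GRCm38). The filter was filterByExpr (minimum count 10), the scaling TMM, and the test edgeR's two-sided quasi-likelihood F test (edgeR 4.0.16, R 4.3.3) over 15707 genes, with no covariate, Benjamini-Hochberg adjustment and a threshold of 0.05. Biological variation between pools, as edgeR's common coefficient, came to 0.239. SE is the size of a fold change divided by the root of F. Sums and ratios over chosen genes have no p-value, and with 3 pools against 3 no exact permutation p can be below 0.1. P-values set the difference between KO and WT against the spread between pools of several hearts, not between single animals. That spread may be partly technical. Libraries of the same group differed beyond counting noise (chi-square over its degrees of freedom, 38.0 to 84.1).

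All 33 genes are described by role, and of each further heart muscle list the 3 tested genes with the highest mean CPM. The genes and lists were chosen with earlier results of these data known. Simulated KO and WT counts over 15423 genes were used as a test: of 100 genes changed 2-fold, 65 were called, of 100 changed 4-fold, 97, no called gene had the opposite sign, and 10 unchanged genes were called. The simulation drew each gene independently, without shifts that many genes of a pool share. Its rates therefore do not give the power of the real comparison, where Tjp1 at a log2 fold change of -1.11 did not pass (adjusted p = 0.153 by edgeR). Other settings were DESeq2 1.42.0, limma-voom (limma 3.58.1), other scalings and filters, bias-adjusted deviances, the replicate number as a block, and each library left out. Counts of genes below 0 or without overlap under these settings, and the principal transcript length, were added after seeing the data.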

Additional observations from a re-analysis of the deposited data

How the results depend on the processing

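Over all genes, 2 passed in edgeR, 785 with DESeq2, 1 with limma-voom, 782 without the low-count filter, 3 with the replicate block, and 1 to 1338 with 1 library left out, the most without WT replicate 1. Of the 33 genes, 0 passed in edgeR with all 6 libraries and 0 under every other setting except without WT replicate 1, where Ryr2 passed, so leaving out 1 library gave 0 to 1. Their median log2 fold change ranged from -0.77 to -0.36 with 1 library left out and from -0.56 to -0.49 under the other settings. Myh7 and Nppb, without an adjusted p by DESeq2, are counted as not passing there. Of 489 fold changes of single genes under other settings, 485 kept their direction and their side of the threshold, 1 passed (Ryr2) and 3 changed sign. These were Nppb with limma-voom (-0.016) and without KO replicate 3, where leaving out 1 library gave -0.55 to 0.73, and Smpx without WT replicate 3, where leaving out 1 library gave -0.59 to 0.11. The causes were not tested. The difference in the share of gene reads (KO minus WT) was -0.0468 percentage points, -0.0690 to -0.0309 with 1 library left out, -0.0284 without Tpm1, Des and Atp2a2 and -0.0418 with TMM-scaled library sizes. The difference in the log2 ratio of atrial to ventricular genes was -0.15 for Myl4 to Myl3, -0.13 for Nppa to Myl2 and 0.03 for Myl7 to Myl2, the last of the opposite sign.

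Over all genes tested, same-numbered pools did not deviate together (correlations over genes of 0.0968, -0.160 and 0.00601 for numbers 1 to 3). Among the 33 genes, replicate 3 was the highest WT pool for 26 and the highest KO pool for 31. Whether same-numbered pools share a batch was not tested. With the replicate number as a block, 0 of the 33 genes passed in edgeR and 19 were lower at an unadjusted p under 0.05 (10.6% of all genes tested). The median of the 33 was then -0.54. Depth limits Myh7, Nppb and Smpx, each counted at most 51 times in a library.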
